A study of Homo sapiens with 4 samples.

Results

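The 44 genes described here carry out non-homologous end joining (10 genes), base excision repair with single-strand break repair (20 genes) and nucleotide excision repair (14 genes). They were chosen by name as core genes of these 3 pathways, and their symbols were matched to the Ensembl identifiers of the count table. All 44 were found among the 60880 genes listed, and 43 had enough reads to be tested. RNA-Seq counts of 2 LNCaP95 libraries (replicates 1 and 2) were compared with those of 2 LN95(KO) libraries (replicates 3 and 4). LNCaP95 is a subline of the androgen-sensitive prostate cancer line LNCaP that grows without androgen, and its libraries are labelled wild type. LN95(KO) is LNCaP95 in which UGT2B17, an enzyme that attaches glucuronic acid to androgens, was knocked out. Both groups were kept in RPMI1640 with charcoal-stripped serum, which is depleted of steroids, and neither was treated before RNA was taken. The study asked whether UGT2B17 affects transcription of genes for mitosis and the DNA damage response, and measured PRKDC and PARP2 among others by qPCR.

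Non-homologous end joining seals double-strand breaks by direct ligation: the Ku heterodimer holds the ends, the kinase DNA-PKcs gathers the processing enzymes, and DNA ligase IV joins the strands. Base excision repair removes single damaged bases with lesion-specific glycosylases, opens the backbone at the empty site, fills the gap and seals the nick, while PARP enzymes sense the broken strand. Nucleotide excision repair cuts out a short stretch of strand around bulky damage such as ultraviolet photoproducts, after recognition across the genome or at a stalled RNA polymerase.

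Gene reads per library ranged from 17330338 to 18813193. The labels do not say whether the libraries of a group came from separate cultures, so p-values measure the spread between these libraries, which may be technical. How many clones make up LN95(KO) was not stated. UGT2B17 had 2788 and 2748 counts in LNCaP95 against 21 and 20 in LN95(KO), and fell by 7.04 on the log2 scale (SE 0.10, quasi-likelihood test of edgeR, Benjamini-Hochberg adjusted p = 1.18e-18). Markers of prostate luminal cells summed to 3002 and 3006 CPM (counts scaled to a common library size) in LNCaP95 and 3576 and 3455 CPM in LN95(KO). Of the markers of other cell types, the 3 basal markers summed to at most 1.26 CPM, the 3 neuroendocrine markers to at most 2.46 CPM and the 3 fibroblast markers, nearly all COL1A1, to at most 34.5 CPM in any library. CHGA and DCN had no read in any library, where a count of 0 allows up to 3 counts for counting error alone, and the leukocyte marker PTPRC had a single read in 1 library.

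Base excision repair had the largest share of genes that rose in LN95(KO) at an adjusted p under 0.05. By the sign of the fold change alone, 8 of 9 tested end joining genes and 16 of 20 base excision genes were higher. So were 6 of 14 nucleotide excision genes. The share of all genes tested that were higher by sign was not counted, and their median log2 fold change was -0.008. Of the 20 base excision genes, 13 rose and 3 fell at an adjusted p under 0.05, and the median log2 fold change was 0.32. At this threshold 29.8% of all genes tested were higher and 30.1% lower. Nucleotide excision repair was mixed, with 3 genes that rose and 4 that fell of 14, and a median of -0.11. With upper quartile scaling these counts were 3 and 7, and over the 11 genes with at most 20% of exon bases shared with another gene the median was 0.02. End joining had 4 genes that rose and 1 that fell of 9 tested, and a median of 0.14. Most of these changes were small: NEIL3, PARP2 and DDB2 rose by more than 2-fold, as did 8.86% of all genes tested, and no member fell by that much. In the stricter glmTreat test of edgeR, which asks for a change beyond 2-fold, NEIL3 passed (adjusted p = 1.79e-08) and DDB2 and PARP2 did not (adjusted p = 0.225 and 0.512).

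These counts were read against all 15626 genes tested. In either direction, 59.8% of them had an adjusted p under 0.05. The share that rose was 65.0% in base excision repair, 44.4% in end joining and 21.4% in nucleotide excision repair, and the share that fell was 28.6% in nucleotide excision repair, 11.1% in end joining and 3 of 20 genes in base excision repair. The median log2 fold change of all genes tested was -0.008, with quartiles of -0.367 and 0.365. With the added requirement of a fold change over 2, 18.0% of all genes passed, 9.13% being lower, against 3 members that were higher and 0 that were lower of 43. Differences between the pathways themselves were not tested. In bulk RNA, fewer cells of a kind and less RNA per cell cannot be told apart.

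**Figure D1:**
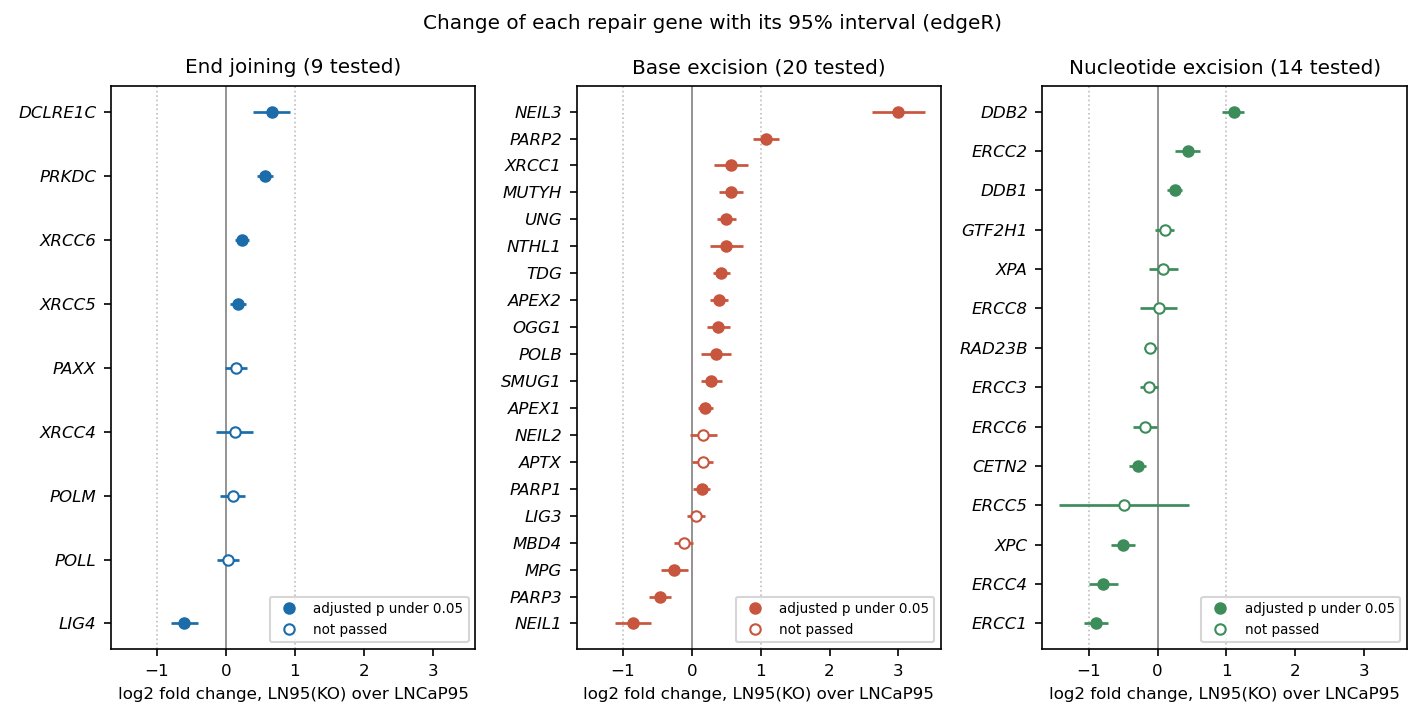
Log2 fold change of each tested member, LN95(KO) over LNCaP95 (x axis), in 3 panels for the 3 pathways. Points are edgeR estimates from 2 libraries per group, horizontal lines are 95% intervals, filled points had an adjusted p under 0.05, and dotted lines mark a 2-fold change. NEIL3 at 3.0 lies far to the right of the other members, and most base excision genes lie to the right of 0.

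The 3 members past a 2-fold change are shown with the 250 bases before their annotated start, since they had the largest rises of the list and this is where promoter elements usually lie. NEIL3 stood far from the other members, while the 95% interval of PARP2 (0.89 to 1.26) overlapped that of DCLRE1C (0.40 to 0.93). The sequences are from RefSeq on GRCh38.p14 and are written 5′ to 3′ on the strand of the gene. Capitals mark matches, on either strand, to 6 short motifs: the cell cycle homology region (TTTGAA), the CCAAT box (CCAAT), the E2F site (TTTNNCGC), the ETS site (CCGGAAG), the NRF1 site (GCGCA, then any base, then GCGC) and the GC box (GGGCGG). No match in these windows overlapped another. The windows lie at chr4:177309624-177309873 for NEIL3, chr11:47214204-47214453 for DDB2 and chr14:20343385-20343634 for PARP2, all on the plus strand.
NEIL3: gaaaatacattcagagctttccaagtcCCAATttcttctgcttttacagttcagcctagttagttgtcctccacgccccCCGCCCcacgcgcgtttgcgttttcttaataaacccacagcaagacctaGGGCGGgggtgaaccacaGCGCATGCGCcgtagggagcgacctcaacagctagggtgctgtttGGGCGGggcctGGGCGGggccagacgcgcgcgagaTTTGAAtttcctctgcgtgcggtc
DDB2: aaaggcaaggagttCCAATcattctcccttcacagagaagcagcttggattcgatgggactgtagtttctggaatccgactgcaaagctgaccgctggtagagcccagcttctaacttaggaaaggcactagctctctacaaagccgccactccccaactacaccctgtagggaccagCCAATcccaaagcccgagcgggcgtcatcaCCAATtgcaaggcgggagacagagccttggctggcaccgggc
PARP2: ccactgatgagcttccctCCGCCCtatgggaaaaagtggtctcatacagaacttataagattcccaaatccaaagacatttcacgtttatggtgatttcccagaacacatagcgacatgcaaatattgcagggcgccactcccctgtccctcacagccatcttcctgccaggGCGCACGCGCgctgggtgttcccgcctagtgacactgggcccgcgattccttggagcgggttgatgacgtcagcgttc

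The NEIL3 window held 1 cell cycle homology region, at -24 to -19 from the start, with 1 CCAAT box, 1 NRF1 match and 4 GC boxes further upstream. The DDB2 window held 3 CCAAT boxes and no match to the other 5 motifs. The PARP2 window held 1 NRF1 match at -78 to -69 and 1 GC box. A match is a run of letters and not a shown binding site.

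Windows were found for 39 of the 44 members. The cell cycle homology region occurred in 2 of them, NEIL3 and XRCC1, and in 8.16% of the windows of all tested genes. CCAAT boxes occurred in 17 of 39, against 34.9% of the windows of tested genes, and GC boxes in 26 of 39, against 66.7%. NRF1 matches occurred in 8 of 39, 6 of them in base excision genes and none in end joining genes, against 10.6%. ETS matches occurred in 10 of 39, against 15.6%, and these were 5 of the 8 end joining windows, 3 of the 17 base excision windows and 2 of the 14 nucleotide excision windows. E2F matches occurred in 4 of 39, against 8.90%. The windows of ERCC1 and ERCC4, picked out after their values were seen, held none of the 6 motifs, which says only that these letters are not in those windows. Over all 27305 windows, tested or not, the shares were 13.6% for the cell cycle homology region, 33.0% for CCAAT, 5.93% for E2F, 8.82% for ETS, 5.53% for NRF1 and 42.3% for the GC box.

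Among the end joining genes, those that recognise the broken end rose together. PRKDC, which encodes the kinase DNA-PKcs, had 1544 and 1445 counts in LNCaP95 against 2085 and 2263 in LN95(KO). Both knockout libraries lay above both parental libraries, and the log2 fold change was 0.57 (SE 0.06, adjusted p = 1.17e-07). The level moved from 81.3 ± 3.37 CPM to 120.9 ± 4.39 CPM (SD, n = 2 in each group).

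The Ku subunits had smaller estimates. XRCC6, which encodes Ku70, had 6362 and 6146 counts in LNCaP95 against 6851 and 7479 in LN95(KO), with a log2 fold change of 0.23 (adjusted p = 0.000569, SE 0.05). XRCC5, which encodes Ku80, had 2083 and 1926 counts against 2164 and 2266, with a log2 fold change of 0.18 (adjusted p = 0.00938, SE 0.05). The groups did not overlap for either gene, but the change of XRCC5 did not pass without LNCaP95 replicate 2 (adjusted p = 0.196) or with DESeq2 (adjusted p = 0.0612). Over all genes tested, groups that do not overlap were the rule, with 79.8% of genes in that state, 39.8% higher and 39.9% lower in LN95(KO).

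The end processing genes were led by DCLRE1C, which encodes the nuclease Artemis that opens hairpins and trims ends. Its counts were 155 and 201 in LNCaP95 against 272 and 279 in LN95(KO). The LNCaP95 libraries differed from each other more than the knockout libraries did, yet the groups stayed apart, and the log2 fold change was 0.66 (SE 0.13, adjusted p = 0.00021). The gap-filling polymerases POLL and POLM had log2 fold changes of 0.03 and 0.10 and did not pass the test.

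The ligation step held the only end joining member that fell. LIG4, the DNA ligase that seals the break, had 539 and 600 counts in LNCaP95 against 388 and 345 in LN95(KO). Both knockout libraries lay below both parental ones, and LIG4 fell by 0.60 on the log2 scale (SE 0.09, adjusted p = 2.62e-05), from 31.0 ± 2.51 to 20.4 ± 2.13 CPM. XRCC4, the scaffold that LIG4 binds, had a log2 fold change of 0.13 with a 95% interval of -0.14 to 0.40, and PAXX, an accessory factor that binds Ku, one of 0.14 with an interval of -0.02 to 0.31. NHEJ1, which encodes the bridging factor XLF, had 0 and 1 counts in LNCaP95 against 1 and 3 in LN95(KO) and was not tested. Another gene model covers 24.3% of its canonical exon bases, where reads that fall on both genes are left out by the counting. The other 6068 bases are not shared in the annotation used for overlaps, a later release than the one counted on. The part of overlap in its low counts was not tested, so no level can be given for NHEJ1.

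**Figure D2:**
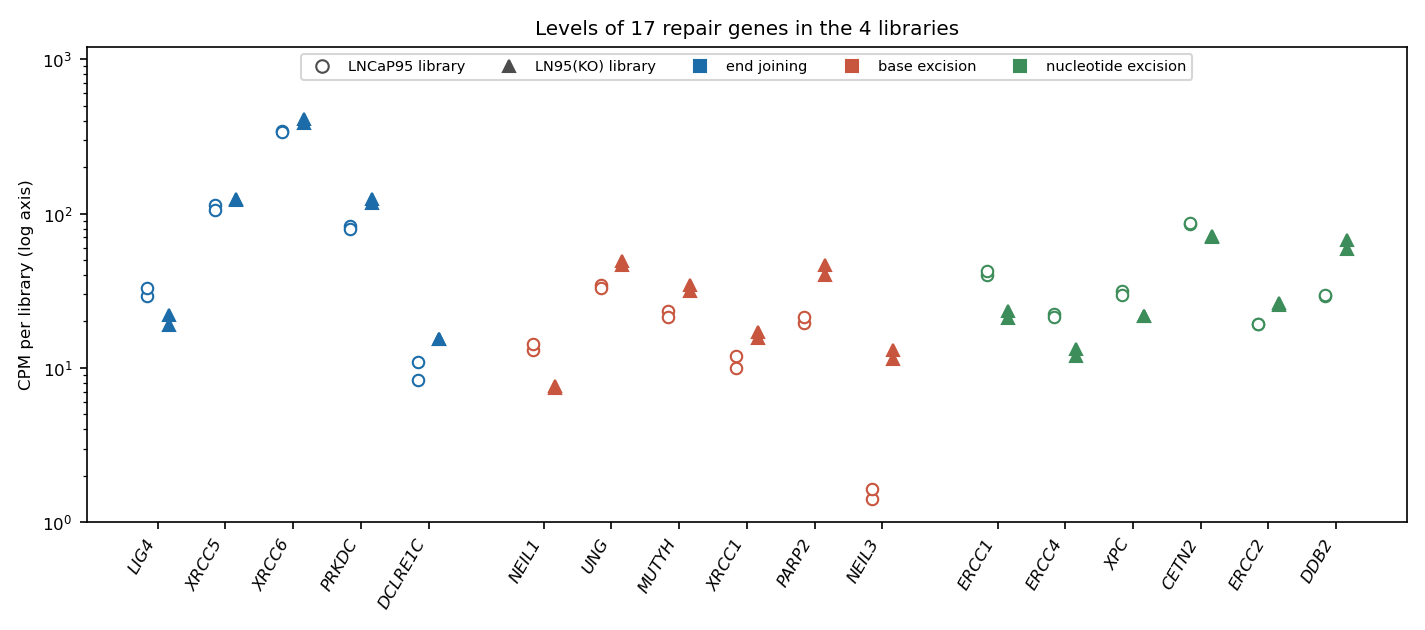
CPM in each of the 4 libraries (y axis, log scale) for 17 members, ordered within each pathway from the lowest to the highest log2 fold change. Open circles are the 2 LNCaP95 libraries and triangles the 2 LN95(KO) libraries, with colour for the pathway. For each of the 17 genes the 2 groups of symbols lie apart, with NEIL3 the widest at 1.52 against 12.2 mean CPM. All 17 had an adjusted p under 0.05 and most were picked for their change, so this separation largely follows from the choice. Over all genes tested, 79.8% had groups that did not overlap.

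In base excision repair the glycosylases, which cut the damaged base from its sugar, gave both the largest rise and the largest fall. Of 11 glycosylase genes, 7 rose and 2 fell, against 29.8% and 30.1% of all genes tested. Their median log2 fold change was 0.38. NEIL3, a glycosylase for oxidised bases and interstrand crosslinks that is known from dividing cells, had 26 and 30 counts in LNCaP95 against 201 and 238 in LN95(KO). The groups were widely separated, at 1.52 ± 0.162 and 12.2 ± 1.19 CPM, a 7.98-fold rise (log2 fold change 3.0, SE 0.18, adjusted p = 1.77e-10). NEIL3 (ENSG00000109674) has 10 exons on the plus strand of chromosome 4, positions 178231028 to 178284090 of GRCh37. Its log2 fold change lay between 2.89 and 3.11 under every alternative run.

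NEIL1, a related glycosylase for oxidised bases, moved the other way. It had 240 and 260 counts in LNCaP95 against 132 and 139 in LN95(KO). The groups lay apart, and NEIL1 fell by 0.85 on the log2 scale (SE 0.12, adjusted p = 1.09e-05), from 13.6 ± 0.843 to 7.54 ± 0.112 CPM. Of its canonical exon bases, 52.7% are shared with other genes, 49.4% with MAN2C1 on the other strand, and reads on more than 1 gene were not counted. MAN2C1 itself had 678 and 675 counts against 596 and 580 (log2 fold change -0.17, adjusted p = 0.0537). NEIL2, the third NEIL gene, had a log2 fold change of 0.16 and did not pass the test.

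MUTYH, which removes adenine mispaired with oxidised guanine, had 429 and 390 counts in LNCaP95 against 558 and 632 in LN95(KO). The groups did not overlap, and the log2 fold change was 0.57 (SE 0.08, adjusted p = 1.65e-05). UNG, the main uracil glycosylase, had 637 and 606 counts against 823 and 900. It was again higher in both knockout libraries, with a log2 fold change of 0.50 (adjusted p = 8.57e-06, SE 0.07), and it was the only member found in the S phase or G2/M phase gene lists distributed with Seurat.

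The other glycosylases that rose were NTHL1 (log2 fold change 0.50), which acts on oxidised pyrimidines, TDG (0.43), which acts on thymine and modified cytosine, OGG1 (0.38), which removes oxidised guanine, and SMUG1 (0.28), which removes uracil and did not pass with DESeq2 (adjusted p = 0.0654). MPG, the alkyladenine glycosylase, fell by 0.25 on the log2 scale (adjusted p = 0.0239), but this change did not pass with DESeq2, with plain library totals or when LNCaP95 replicate 1, LNCaP95 replicate 2 or LN95(KO) replicate 3 was left out. NPRL3 covers 43.1% of the canonical exon bases of MPG. MBD4, a thymine glycosylase that binds methylated DNA, had a log2 fold change of -0.11 and did not pass the test.

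The break sensors split. PARP2, which makes poly(ADP-ribose) at strand breaks, had 362 and 392 counts in LNCaP95 against 705 and 850 in LN95(KO). Both knockout libraries lay well above both parental ones, at 43.2 ± 4.77 against 20.5 ± 1.27 CPM, a 2.11-fold rise (log2 fold change 1.08, SE 0.09, adjusted p = 1.32e-08). PARP2 (ENSG00000129484) has 16 exons on the plus strand of chromosome 14, positions 20811774 to 20826063 of GRCh37. Without LN95(KO) replicate 4 its log2 fold change was 0.96, which is under 2-fold.

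PARP1, the most abundant of the PARP enzymes, had 7940 and 7944 counts in LNCaP95 against 7835 and 9359 in LN95(KO). After scaling for library size the groups did not overlap, and the log2 fold change was 0.15 (SE 0.06, adjusted p = 0.0397). This small difference did not pass without LN95(KO) replicate 4 (log2 fold change 0.04, adjusted p = 0.479) or without either LNCaP95 library (adjusted p = 0.137 and 0.105), nor with DESeq2 (adjusted p = 0.0803) or upper quartile scaling (adjusted p = 0.11). PARP3, a PARP enzyme linked to double-strand breaks, fell by 0.46 on the log2 scale (adjusted p = 5.63e-05), with 723 and 753 counts against 542 and 506.

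All 6 genes for incision, gap filling and sealing had log2 fold changes above 0. Of them 4 rose, against 29.8% of all genes tested. XRCC1, the scaffold that holds the single-strand break repair proteins, had 220 and 182 counts in LNCaP95 against 276 and 310 in LN95(KO). The groups were apart, with a log2 fold change of 0.58 (adjusted p = 0.000346, SE 0.11), although 22.7% of its canonical exon bases are shared with other genes. The abasic site nucleases APEX2 and APEX1 had log2 fold changes of 0.40 and 0.20, and the gap-filling polymerase POLB one of 0.35, which did not pass with DESeq2 (adjusted p = 0.117). LIG3, the ligase that partners XRCC1 and shares 44.8% of its canonical exon bases with RFFL, and APTX, which clears blocked 5′ ends, had log2 fold changes of 0.07 and 0.16 and did not pass the test.

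In nucleotide excision repair the damage recognition genes moved in both directions. DDB2, the subunit that binds ultraviolet photoproducts, had 542 and 541 counts in LNCaP95 against 1043 and 1235 in LN95(KO). The LNCaP95 libraries were nearly equal and far below the knockout libraries, at 29.5 ± 0.122 against 63.3 ± 6.18 CPM, a 2.15-fold rise (log2 fold change 1.10, SE 0.08, adjusted p = 1.19e-09). DDB2 (ENSG00000134574) has 10 exons on the plus strand of chromosome 11, positions 47236016 to 47260768 of GRCh37. DDB1, its partner in the photoproduct-binding complex, rose with a log2 fold change of 0.25 (adjusted p = 0.000343).

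XPC, which recognises distorted DNA after DDB2 has bound, fell. Its counts were 580 and 547 in LNCaP95 against 383 and 395 in LN95(KO), the groups did not overlap, and the change was -0.50 on the log2 scale (SE 0.08, adjusted p = 4.18e-05). Strand was not used in counting, and 30.0% of the canonical exon bases of XPC are shared with the antisense gene XPC-AS1. CETN2, the centrin in the XPC complex, had 1587 and 1592 counts against 1259 and 1283, and fell by 0.29 on the log2 scale (SE 0.06, adjusted p = 0.000237). RAD23B, the third subunit of that complex, had a log2 fold change of -0.11 and did not pass the test. DDB2 and XPC are both known targets of p53, and here DDB2 rose while XPC fell. The part of p53 in these values was not tested.

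The incision step held the 2 lowest log2 fold changes of the pathway, those of ERCC1 and ERCC4. Of its 3 genes 2 fell and none rose, against 30.1% and 29.8% of all genes tested. The third gene, ERCC5, had few reads. ERCC1 and ERCC4 (XPF) form the nuclease that cuts on the 5′ side of the damage. ERCC1 had 740 and 779 counts in LNCaP95 against 373 and 429 in LN95(KO). Both knockout libraries were far below both parental ones, at 22.3 ± 1.72 against 41.3 ± 1.72 CPM, and ERCC1 fell by 0.89 on the log2 scale (SE 0.08, adjusted p = 4.36e-08). ERCC4 had 410 and 390 counts in LNCaP95 against 212 and 241 in LN95(KO). The groups were again apart, at 21.8 ± 0.651 and 12.6 ± 0.869 CPM, and ERCC4 fell by 0.79 on the log2 scale (SE 0.10, adjusted p = 2.46e-06). The 95% intervals of the change, -1.06 to -0.72 for ERCC1 and -1.0 to -0.58 for ERCC4, overlapped.

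The exons of ERCC1 overlap those of POLR1G over 47.1% of its canonical transcript, and those of ERCC4 overlap another gene over 13.5%. POLR1G had 32 and 28 counts in LNCaP95 against 34 and 45 in LN95(KO) (log2 fold change 0.43, adjusted p = 0.163). Reads on bases shared with ERCC1 were left out for both genes, so the level of POLR1G cannot be read from these counts. ERCC5 (XPG), the nuclease for the 3′ side, had 13 and 23 counts against 18 and 7, so that the groups overlapped. Its log2 fold change of -0.49 had a 95% interval of -1.43 to 0.46. The read-through gene BIVM-ERCC5 covers 91.7% of its canonical exon bases and was listed at 0 in all 4 libraries, so the level of ERCC5 cannot be read from these counts.

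Of the 4 genes that open and check the DNA, 1 rose. ERCC2 (XPD), a helicase of the transcription factor TFIIH, had 354 and 353 counts in LNCaP95 against 468 and 468 in LN95(KO), and rose with a log2 fold change of 0.44 (adjusted p = 0.000272, SE 0.09). The replicates were nearly identical within each group and the groups did not overlap. The TFIIH helicase ERCC3 (XPB), the TFIIH subunit GTF2H1 and the damage verification protein XPA had log2 fold changes of -0.12, 0.11 and 0.08 and did not pass the test. The genes of transcription-coupled repair, ERCC6 (CSB) and ERCC8 (CSA), had log2 fold changes of -0.19 and 0.02 and did not pass either.

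In all, 15 of the 43 tested members did not pass the test. For the 14 of them other than ERCC5, the 95% intervals lay between -0.36 and 0.40 on the log2 scale, so that a 2-fold change lies outside each of these intervals.

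The levels of the members spanned a wide range. Levels were taken per kilobase of canonical exon not shared with another gene. Reads were counted over all exons of a gene, so the ranking depends on the transcript used for the length. In LNCaP95 the highest levels were those of APEX1 (184.5 CPM per kb), XRCC6 (160.3), PARP1 (108.6), RAD23B (72.9) and CETN2 (61.2). With NHEJ1 and ERCC5 left aside for their few reads, the low end held ERCC4 (3.72 CPM per kb), ERCC6 (3.05), DCLRE1C (1.63), ERCC8 (1.07) and NEIL3 (0.645). In LN95(KO), NEIL3 stood at 5.16 CPM per kb, above ERCC4 at 2.15 and ERCC6 at 2.68, while APEX1, XRCC6 and PARP1 stayed the highest at 211.9, 187.8 and 120.1.

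**Figure D3:**
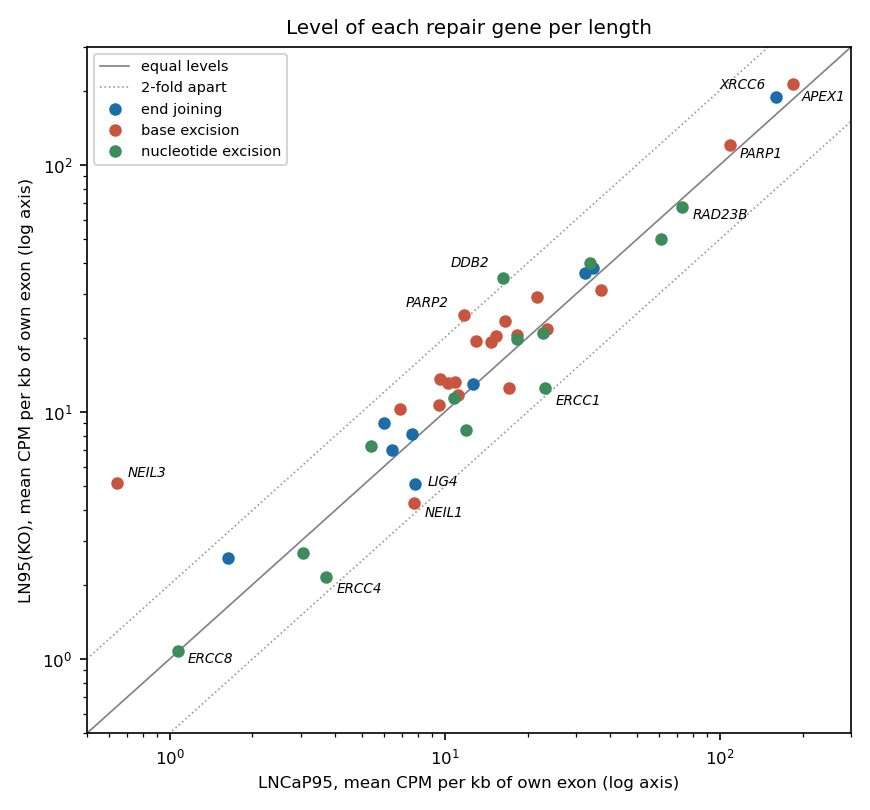
Mean CPM per kilobase of canonical exon not shared with another gene in LNCaP95 (x axis) and LN95(KO) (y axis), both on log scales, for 42 members. Reads were counted over all exons of a gene, so levels depend on the transcript used for the length. Each point is 1 gene coloured by pathway, the solid line marks equal levels and the dotted lines a 2-fold difference, and NHEJ1 and ERCC5 are left out for their low counts. NEIL3 lies furthest above the line of equal levels, and ERCC1, ERCC4, NEIL1 and LIG4 lie below it but within 2-fold.

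A few abundant genes weighed on the summed level of each pathway. Base excision repair summed to 1212 and 1208 CPM in LNCaP95 and 1337 and 1469 CPM in LN95(KO), of which PARP1 made up 34.8%. End joining summed to 670.8 and 656.4 CPM against 762 and 792 CPM, with 51.3% from XRCC6. Nucleotide excision repair summed to 843.8 and 841.5 CPM against 823.4 and 841.8 CPM, with 34.5% from RAD23B. The knockout libraries lay above the parental ones for the sums of base excision and end joining, and the groups overlapped for nucleotide excision.

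The base excision total was higher in LN95(KO) replicate 4 than in replicate 3. Replicate 4 was above replicate 3 in 17 of the 20 members that rose, in 4 of the 8 that fell and in 31 of all 43 tested. The share over all genes tested was not counted, so these counts cannot be read as a trait of the repair genes.

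Other genes of the same or related pathways were taken from lists drawn up by hand, with earlier results of these data known. Each gene was put in a single list, so the list medians depend on where genes of DNA synthesis were placed. Over all genes tested, 29.8% rose, 30.1% fell and 8.86% rose by more than 2-fold. Of 19 partner genes of base excision repair, most of them in long-patch synthesis, 16 rose and 1 fell. Their median log2 fold change was 0.92, and 8 rose by more than 2-fold. LIG1, the ligase that seals long patches and Okazaki fragments, had the largest log2 fold change of these at 1.89 (SE 0.13, adjusted p = 9.61e-10). The others were the clamp loader subunits RFC4 (1.36), RFC3 (1.25) and RFC2 (1.05), the flap nuclease FEN1 (1.33), the chromatin remodeller CHD1L (1.18), the sliding clamp PCNA (1.11) and the polymerase subunit POLD1 (1.09). CHD1L shares 92.2% of its canonical exon bases with other genes. The cell cycle lists described last hold 4 of the 19 genes, FEN1, PCNA, RFC2 and POLD3, the last with a log2 fold change of 0.27 (adjusted p = 0.0281). The list summed to 813.4 and 766.3 CPM in LNCaP95 and 1283 and 1441 CPM in LN95(KO).

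Of 10 tested partners of end joining, 5 rose and 2 fell, against 29.8% and 30.1% of all genes tested. Their median log2 fold change was 0.10. POLQ, the polymerase of theta-mediated rather than non-homologous end joining, had 33 and 44 counts in LNCaP95 against 345 and 369 in LN95(KO). The groups were far apart, with a log2 fold change of 3.24 (adjusted p = 5.82e-12, SE 0.15). APLF, a histone chaperone that binds Ku, had 21 and 13 counts against 5 and 7, and fell by 1.45 on the log2 scale (SE 0.47, adjusted p = 0.0129). DNTT, the template-free polymerase of lymphocytes, had a single read and was not tested.

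Of 18 tested partners of nucleotide excision repair, 10 rose and 3 fell, against 29.8% and 30.1% of all genes tested. Their median log2 fold change was 0.16, and none passed a 2-fold change, against 18.0% of all genes tested. GTF2H4, a further TFIIH subunit, had no read in any library, so no level can be given for it.

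**Figure D4:**
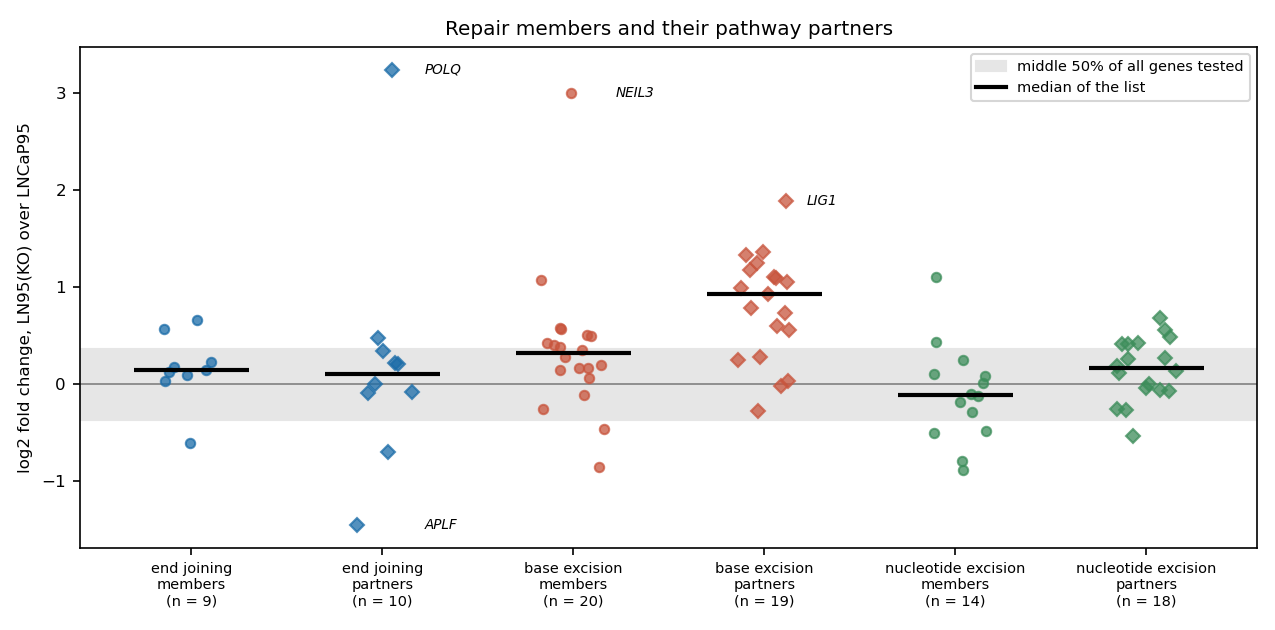
Log2 fold change, LN95(KO) over LNCaP95 (y axis), of the members (circles) and pathway partners (diamonds) of each pathway, with the number tested under each column. Black bars are list medians and the grey band spans the middle 50% of all genes tested, from -0.367 to 0.365. The median of the base excision partners, 0.92, lies above the band, and the medians of the other 5 lists lie inside it. Each partner was put in a single list, so the partner medians depend on where genes of DNA synthesis were placed.

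Most markers of the cell cycle rose in LN95(KO). In the S phase list 39 of 42 tested genes rose and none fell, with a median log2 fold change of 1.35. In the G2/M phase list 52 of 54 rose and 1 fell, with a median of 2.76. Over all genes tested, 29.8% rose and 30.1% fell. Of the 43 tested members, 20 rose and 8 fell in the same libraries, with a median of 0.15. NEIL3, POLQ and 16 of the 19 base excision partners were among the genes that rose, and LIG4, NEIL1, ERCC1 and ERCC4 among those that fell. The part of the cell cycle genes in the repair results was not tested.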

How the data were processed

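HISAT2 (version 2.1.0) was used by the authors for alignment to hg19, and htseq for counting on GENCODE annotation. The deposited values are raw counts, with no normalization. Strand was not used per the file names. Reads over several genes are dropped by htseq, so genes with overlapping exons lose reads. Library sizes and tests left out the 5 summary lines of each file.

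Counts were tested in R (version 4.3.3) by robust quasi-likelihood fits of edgeR (version 4.0.16) on TMM factors, over all genes kept by filterByExpr (minimum count 10, minimum total count 15). Benjamini-Hochberg adjustment ran over the 15626 genes tested. A gene rose or fell at an adjusted p under 0.05, and the 2-fold threshold is that of the study, which used DESeq2. Standard errors were derived from the log2 fold change and its F statistic. CPM are counts scaled by TMM library size, per the cpm function. The biological coefficient of variation was 4.27%. Replicates were not the same library deposited again: chi-square over degrees of freedom was 2.31 between the LNCaP95 libraries and 3.31 between the LN95(KO) libraries. Alternatives were DESeq2 (version 1.42.0), RLE, upper quartile and total count scaling, no filter, glmTreat and leaving out each library. Fits were tested on simulated data.

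Identifiers were matched by Ensembl ID (59899 of 60880). Exon structure and overlaps came from GENCODE release 44 on GRCh37, a later release than the one counted on. Full values are given for members past 2-fold, for PRKDC and PARP2, and in each pathway for the 6 members with the largest change among those with an adjusted p under 0.05 and a mean count of at least 50. Partners are named where past 2-fold. DNTT, GTF2H4 and genes that overlap a member are named besides, after their values were seen. The members and lists were chosen with earlier results of these data known.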

Additional observations from a re-analysis of the deposited data

Results flagged for a closer look

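Reads left unaligned lie outside the gene counts and were taken from the summary lines of the count files. They made up 3.85% of entries in LNCaP95 replicate 1 and 3.96% in replicate 2, against 8.05% in LN95(KO) replicate 3 and 7.71% in replicate 4. Both knockout libraries thus lay above both parental ones. The part of this in the values of the repair genes was not tested.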

How the results depend on the processing

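No paired analysis was possible because no replicate number occurs in both LNCaP95 and LN95(KO). Of 387 values for single members over 9 other settings, 356 kept their direction and their side of the threshold, 10 newly passed it, 14 no longer passed it (in XRCC5, PARP1, MPG, SMUG1 and POLB) and 7 changed sign. The sign changes were POLL (-0.01 with upper quartile factors, -0.03 to 0.09 with 1 library left out), XRCC4 (-0.02 to 0.27 with 1 library left out), ERCC8 (-0.02 with upper quartile factors, -0.09 to 0.13 when 1 library was left out) and ERCC5 (-1.33 to 0.06 with 1 library left out), none of which passed the test. Genes past 2-fold numbered 1687 with glmTreat, against 2811, and 9349 passed at any fold. At any fold, 5 end joining, 16 base excision and 7 nucleotide excision members passed. With glmTreat 1 base excision and 0 nucleotide excision members remained past 2-fold, and leaving out a library gave 1 to 2 base excision members. Upper quartile factors, chosen after seeing the data for this count, put 7 nucleotide excision members lower and 3 higher, against 4 and 3. The end joining median was 0.20 with library totals, 0.10 with upper quartile factors and 0.11 to 0.19 with 1 library left out. The base excision median was 0.37 with library totals. The nucleotide excision median was -0.06 with library totals, -0.15 with upper quartile factors, -0.11 to -0.07 with 1 library left out, lowest in size without LN95(KO) replicate 4, and 0.02 over the 11 members with at most 20% exon overlap, so its sign is not settled. Why these values moved was not tested.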
